A study of Homo sapiens with 6 samples.

Results

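Proteasome genes were measured by RNA-seq in JHH-4, a human hepatocellular carcinoma cell line, in cells made to overexpress miR-885-5p and in control cells. The genes were taken by name: every row whose symbol begins with PSMA, PSMB, PSMC, PSMD, PSME, PSMF or PSMG and then a digit. That gave 47 of 14034 rows. They comprise 14 constitutive subunits of the 20S core, 17 of the 19S cap, 5 immunoproteasome genes (PSMB8, PSMB9, PSMB10, PSME1 and PSME2), 3 other regulators, 7 assembly factors and PSMC3IP, which shares the prefix but encodes a recombination factor. In the miR-885-5p group (3 libraries) the cells received a plasmid with the primary microRNA, on a genotype labelled as overexpressing hsa-miR-885-5p. The control group (3 libraries) was labelled WT, and the labels name no plasmid or other treatment for it, so plasmid delivery and the microRNA itself cannot be told apart. The level of the microRNA was not measured in these data. All libraries come from the same cell line. The submitters describe each group's libraries as technical replicates, and their p-values therefore measure technical spread alone.

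The proteasome is the protease that degrades most ubiquitin-tagged proteins in the cytosol and nucleus. Its 20S core is a barrel of outer alpha and inner beta rings, and the proteolytic sites sit on the beta subunits PSMB6 (beta1), PSMB7 (beta2) and PSMB5 (beta5). The 19S cap binds tagged proteins, removes the ubiquitin and feeds the unfolded chain into the core, with a base that holds the ATPases and a lid that holds the deubiquitinase. Interferon induces the immunosubunits PSMB9, PSMB10 and PSMB8, which take the places of beta1, beta2 and beta5 in newly built cores, and PSME1 and PSME2, which form the PA28 activator. The transcription factor NRF1, encoded by NFE2L1, raises many of the constitutive genes together when proteasome activity is short.

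Total counts ran from 46382314 to 56409821 in miR-885-5p libraries and from 48327113 to 49694754 in control libraries, and levels are given as CPM, counts scaled to the library total, with TMM factors between libraries. The identity of the cells was checked against listed markers. Of 15 hepatocyte or hepatoma markers 7 were tested, with a summed level of 1943 to 2018 CPM in miR-885-5p libraries and 2323 to 2409.6 CPM in control libraries, most of it from the keratin genes KRT8 and KRT18; ALB, AFP and HNF4A were among the 8 not analysed here. Of 12 leukocyte markers 4 were tested. Their sum was 334 to 338 CPM in miR-885-5p libraries and 342 to 371 CPM in control libraries. Most of it came from LCP1 and CD68, and PTPRC and CD3E were among those not analysed here. Of 6 fibroblast markers 3 were tested, with a sum of 27.98 to 28.95 CPM in miR-885-5p libraries and 15.71 to 18.20 CPM in control libraries. The part of these marker differences in the results was not tested. RNA was taken from whole cultures, so fewer cells that express a gene and less of its RNA per cell cannot be told apart. Control library 3 stood apart from the other control libraries for the proteasome genes, as described below.

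Proteasome genes were mostly lower in miR-885-5p cells, and by little. With edgeR's quasi-likelihood test and Benjamini-Hochberg adjustment over all 14034 rows, 23 of the 47 genes fell at an adjusted p under 0.05, where 26.5% of all rows did, and 4 rose, where 26.3% of all rows did. Calls in either direction came to 27 of 47, close to the 52.9% among all rows, while their split was 48.9% lower and 8.51% higher. Adjusted p-values are from this test wherever no other is named. The genes that rose were PSMB4, PSMD4, PSMG2 and PSMG3. DESeq2 called 27 of the 47 lower and 4 higher, against 26.8% and 26.6% of all rows. The median log2 fold change was -0.16 over the 47 genes and 0.00 over all rows, and 38 of the 47 values lay below 0. Of the genes that fell, 20 did so by at least 1.2-fold (all rows, 19.2%) and 2, PSMB2 and PSMC3IP, by at least 1.5-fold (all rows, 6.89%). At least 1.2-fold rises were found for PSMG3 alone (all rows, 19.7%) and at least 1.5-fold rises for 0 of the 47 (all rows, 8.24%). The groups did not overlap, with miR-885-5p libraries below, for 24 genes (all rows, 30.3%), and with miR-885-5p libraries above for 3 (all rows, 30.2%). By p under 0.05 in the authors' deposited table, 28 genes were lower and 4 higher, against 28.8% and 28.8% of all rows. In it 0 of the 47 had a different sign. The deposited log2 fold changes of PSMD1, PSMC3 and PSMD2 matched those of the DESeq2 fit (-0.370, -0.364 and -0.323). The deposited values are therefore not a separate check beside DESeq2.

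**Figure D1:**
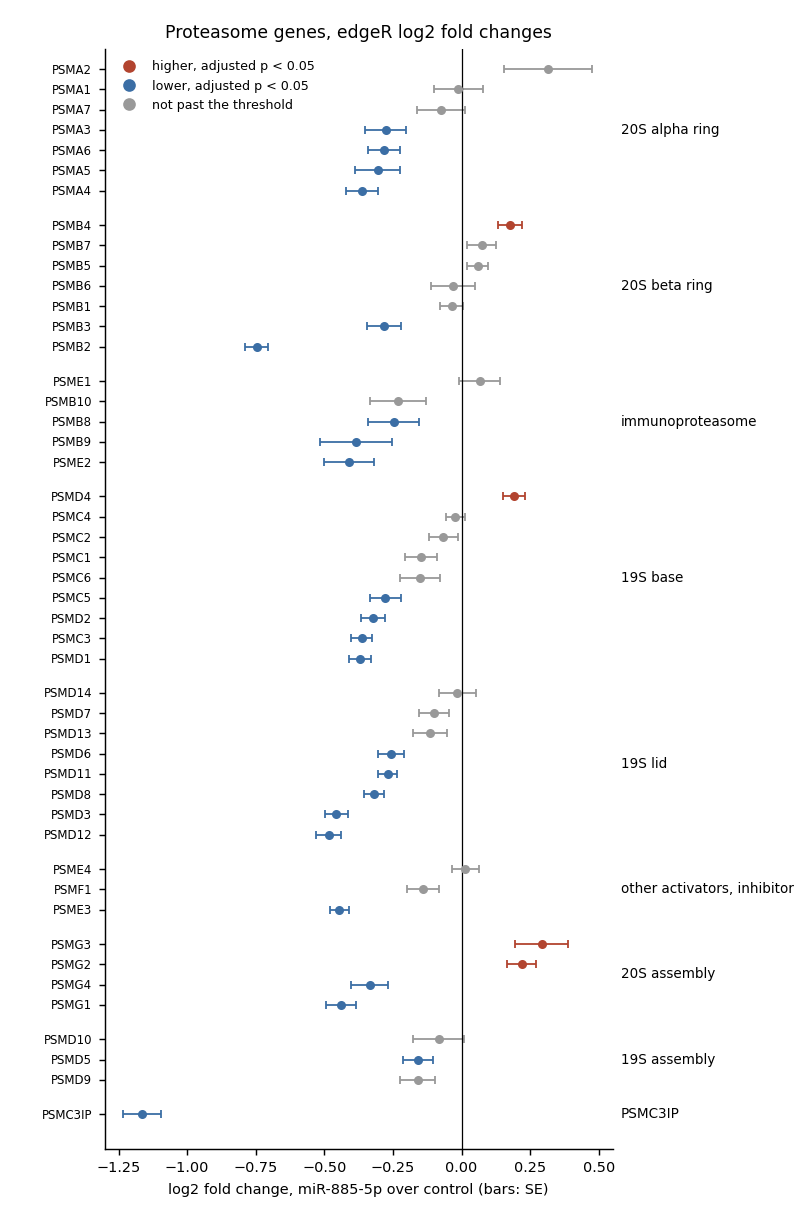
Log2 fold change of each of the 47 genes, miR-885-5p over control, with its standard error, by class. Points at the left in blue fell and points at the right in red rose at an adjusted p under 0.05; 38 of 47 values lie below 0, and PSMB2 (-0.75) and PSMC3IP (-1.16) lie farthest from it.

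In the alpha ring of the 20S core 4 of 7 genes fell (57.1%, all rows 26.5%). None rose with edgeR, at an unadjusted p under 0.05 or with DESeq2 (all rows with edgeR, 26.3%). Of the 7 values 6 were below 0. PSMA4 (alpha3) had 87.1, 74.2 and 80.8 CPM in miR-885-5p libraries, against 108, 104 and 99.2 CPM in control libraries (log2 fold change -0.36, SE 0.06, adjusted p = 6.68e-04). Every miR-885-5p library lay below every control library. PSMA5 (alpha5), PSMA6 (alpha1) and PSMA3 (alpha7) fell by 0.31, 0.28 and 0.28 on the log2 scale. The value of PSMA5 was -0.19 without control library 3 (edgeR adjusted p = 0.00362). PSMA7 (alpha4) and PSMA1 (alpha6) had log2 fold changes of -0.07 and -0.01 and missed the threshold. PSMA2 (alpha2) had 121, 128 and 113 CPM in miR-885-5p libraries, against 88.6, 73.9 and 129 CPM in control libraries (log2 fold change 0.31, SE 0.16, adjusted p = 0.126). Control library 3 alone was as high as the miR-885-5p libraries, and without it PSMA2 was higher in miR-885-5p cells by 0.57 (edgeR adjusted p = 8.54e-05). The call of PSMA3 ended when library 2 of the miR-885-5p group was left out (log2 fold change of -0.24, adjusted p = 0.0517).

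In the beta ring 2 of 7 constitutive genes fell (28.6%, near the 26.5% of all rows) and 1 rose (14.3%, all rows 26.3%). PSMB2 (beta4), which has no proteolytic site, had 122, 115 and 117 CPM in miR-885-5p libraries, against 202, 203 and 189 CPM in control libraries (log2 fold change -0.75, SE 0.04, adjusted p = 8.64e-07). The fitted level was 0.596 times that of control cells, and the groups were far apart. PSMB3 (beta3) fell by 0.28 (SE 0.06). PSMB4 (beta7), a subunit at the joint of the beta rings, had 226, 238 and 233 CPM in miR-885-5p libraries, against 205, 195 and 216 CPM in control libraries (log2 fold change 0.18, SE 0.04, adjusted p = 0.00774). Every miR-885-5p library lay above every control library.

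The 3 constitutive catalytic subunits did not pass the test. PSMB6 had 84.8, 87.6 and 79.4 CPM in miR-885-5p libraries, against 80.9, 78.5 and 98.1 CPM in control libraries. PSMB7 had 107, 103 and 108 CPM in miR-885-5p libraries, against 101, 93.1 and 108 CPM in control libraries. PSMB5 had 113, 112 and 116 CPM in miR-885-5p libraries, against 106, 108 and 113 CPM in control libraries. The groups overlapped for all 3, and control library 3 was the highest control library for each. Their log2 fold changes were -0.03, 0.07 and 0.06, with SEs of 0.08, 0.05 and 0.04. PSMB7 passed the test as higher without control library 3 (log2 fold change 0.12, adjusted p = 0.0421), and PSMB5 did so under total-count scaling, where 31% of all rows were higher and 22.3% lower (log2 fold change 0.11, adjusted p = 0.0475). PSMB1 (beta6) had a log2 fold change of -0.04 and did not pass the test.

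In the base of the 19S cap 4 of 9 genes fell (44.4%, all rows 26.5%) and 1 rose (11.1%, all rows 26.3%). Of the 9 values 8 were below 0. PSMD1 (RPN2), a scaffold of the base, had 148, 142 and 144 CPM in miR-885-5p libraries, against 195, 184 and 183 CPM in control libraries (log2 fold change -0.37, SE 0.04, adjusted p = 4.14e-05). The groups did not overlap. PSMD2 (RPN1), the scaffold that docks ubiquitin shuttles, fell by 0.32, and the ATPase genes PSMC3 (RPT5) and PSMC5 (RPT6) fell by 0.36 and 0.28 on the log2 scale. The other 4 ATPase genes, PSMC6, PSMC1, PSMC2 and PSMC4, had values of -0.15, -0.15, -0.07 and -0.02 and missed the threshold. PSMD4 (RPN10), a ubiquitin receptor, had 209, 208 and 214 CPM in miR-885-5p libraries, against 186, 175 and 190.0 CPM in control libraries (log2 fold change 0.19, SE 0.04, adjusted p = 0.00260). It was the one 19S gene that rose, and its groups did not overlap.

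In the lid 5 of 8 genes fell (62.5%, all rows 26.5%). None rose with edgeR, at an unadjusted p under 0.05 or with DESeq2 (all rows with edgeR, 26.3%). All 8 values were below 0. PSMD12 (RPN5) had 98.6, 92.4 and 97.4 CPM in miR-885-5p libraries, against 135, 140.3 and 128 CPM in control libraries (log2 fold change -0.48, SE 0.05, adjusted p = 1.91e-05). PSMD3 (RPN3) had 229.6, 227 and 229.8 CPM in miR-885-5p libraries, against 316, 327 and 298 CPM in control libraries (log2 fold change -0.46, SE 0.04, adjusted p = 1.29e-05). Both lay well below control in every miR-885-5p library. PSMD8 (RPN12), PSMD11 (RPN6) and PSMD6 (RPN7), which with PSMD12 and PSMD3 are structural lid subunits, fell by 0.32, 0.27 and 0.26. PSMD14 (RPN11), the deubiquitinase of the lid, had 102, 104 and 105 CPM in miR-885-5p libraries, against 105, 93.4 and 116 CPM in control libraries (log2 fold change -0.02, SE 0.07). The groups overlapped, and the sign of its value turned under total-count scaling, and also when control library 3 or library 1 of the miR-885-5p group was left out. Its dimer partner PSMD7 (RPN8) and PSMD13 (RPN9) had values of -0.10 and -0.11, neither past the threshold. PSMD7 passed it as lower without control library 3 (-0.15, adjusted p = 0.0166), and PSMD13 and, of the base, PSMC6 and PSMC1 did so without control library 2. PSMC1 did so with DESeq2 too.

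Summed over its genes, the lid took 1029, 1020.5 and 1028 CPM in miR-885-5p libraries, against 1250.1, 1273 and 1242 CPM in control libraries, a difference of -18.3%. The base took 1412, 1416 and 1401 CPM in miR-885-5p libraries, against 1601, 1529 and 1673 CPM in control libraries, a difference of -12.0%. In both, every miR-885-5p library lay below every control library. The beta ring took 916, 903 and 909.7 CPM in miR-885-5p libraries, against 984, 947 and 1032 CPM in control libraries, a difference of -7.95%, also without overlap, though its groups overlapped in CPM without TMM factors. The 20S core as a whole took 1681, 1652 and 1643 CPM in miR-885-5p libraries, against 1765, 1681 and 1958 CPM in control libraries, a difference of -7.93%. Here library 1 of the miR-885-5p group and control library 2 were level, and without control library 3 the difference was -3.73%. The 5 immunoproteasome genes took 324, 307 and 292 CPM in miR-885-5p libraries, against 344, 300.5 and 385 CPM in control libraries, a difference of -10.3%, and -4.51% without control library 3. Their groups overlapped through control library 2. Median log2 fold changes were -0.05 for the 14 core genes, -0.26 for the 17 cap genes and -0.25 for the 5 immunoproteasome genes. In the core 6 genes fell and 1 rose, and in the cap 9 fell and 1 rose. Among immunoproteasome genes 3 fell and none rose with edgeR, at an unadjusted p under 0.05 or with DESeq2. Beside these counts, 26.5% of all rows fell and 26.3% rose with edgeR. Whether the 3 classes differ from one another was not tested.

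**Figure D2:**
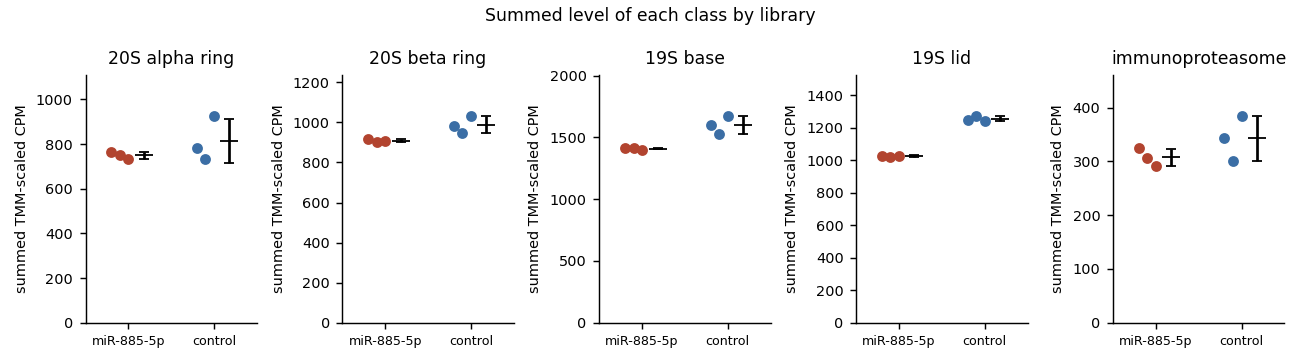
Summed level of each class in TMM-scaled CPM, with 1 point per library in red for miR-885-5p and blue for control, and the mean with SD beside them. The lid, the base and the beta ring separate fully (-18.3%, -12.0% and -7.95%), the alpha ring and the immunoproteasome do not, and control library 3 is the highest point in every panel but the lid.

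Of the 5 immunoproteasome genes 3 fell (60%, all rows 26.5%), and the spread between control libraries was wide for all 5. PSME2 (PA28 beta) had 73.7, 70.1 and 63.8 CPM in miR-885-5p libraries, against 94.8, 78.5 and 103 CPM in control libraries (log2 fold change -0.41, SE 0.09, adjusted p = 0.00379). Its groups did not overlap, and its call held in every alternative fit that was run. PSMB9 had 22.9, 23.7 and 21.5 CPM in miR-885-5p libraries, against 27.3, 24.5 and 37.0 CPM in control libraries (log2 fold change -0.38, SE 0.13, adjusted p = 0.0312). Its groups did not overlap, but control library 2 lay close to the miR-885-5p libraries and control library 3 far above them. PSMB8 had 42.7, 48.3 and 43.7 CPM in miR-885-5p libraries, against 55.3, 45.5 and 59.2 CPM in control libraries (log2 fold change -0.25, SE 0.09, adjusted p = 0.0448). Its groups overlapped through control library 2. PSMB10 had 21.2, 23.5 and 21.2 CPM in miR-885-5p libraries, against 26.5, 21.7 and 29.1 CPM in control libraries (log2 fold change -0.23, SE 0.10, adjusted p = 0.0827) and did not pass the test. PSME1 (PA28 alpha), the partner of PSME2, had 164, 141 and 142 CPM in miR-885-5p libraries, against 139.9, 130.4 and 156 CPM in control libraries (log2 fold change 0.07, adjusted p = 0.490) and its groups overlapped.

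The calls of PSMB9 and PSMB8 rest on few libraries. Without control library 3 the log2 fold changes were -0.19 for PSMB9 (edgeR adjusted p = 0.0549) and -0.17 for PSMB8 (adjusted p = 0.115), so that PSME2 was the 1 immunoproteasome gene left below the threshold. Both calls also ended under total-count scaling, with the replicate number as a block, and when library 1 or 3 of the miR-885-5p group was left out. That of PSMB8 ended as well under upper-quartile scaling and without control library 1, and that of PSMB9 when library 2 of the miR-885-5p group was left out. Without control library 2, PSMB10 passed the test as lower (-0.34, adjusted p = 0.00487), and it did so with DESeq2 (adjusted p = 0.0477). PSMB8 and PSMB9 are neighbours in the MHC region and share exon bases in the annotation, so that without strand some of their reads cannot be told apart.

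**Figure D3:**
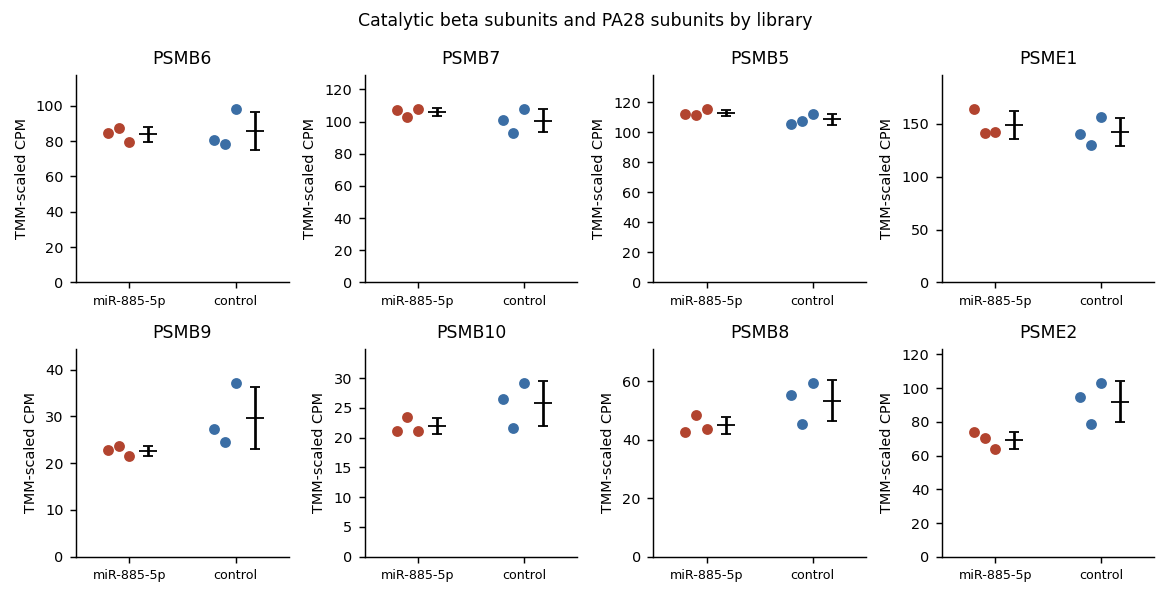
TMM-scaled CPM of the constitutive catalytic subunits with PSME1 (top row) and the immunosubunits with PSME2 (bottom row), 1 point per library in red for miR-885-5p and blue for control, mean with SD beside. In the bottom row control library 2 is the lowest and control library 3 the highest control point in all 4 panels.

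A ratio within a library does not depend on the scaling, so each immunosubunit was set against the constitutive subunit whose place it takes. Per length, PSMB9 relative to PSMB6 stood at 29.4, 29.5 and 29.5% in miR-885-5p libraries, against 36.8, 34.0 and 41.1% in control libraries. The miR-885-5p libraries lay close together, below every control library. PSMB10 relative to PSMB7 stood at 15.9, 18.4 and 15.8% in miR-885-5p libraries, against 21.1, 18.7 and 21.8% in control libraries, and the groups were apart by a small margin. PSMB8 relative to PSMB5 stood at 37.5, 43.4 and 38.0% in miR-885-5p libraries, against 51.8, 41.8 and 52.5% in control libraries, and control library 2 lay inside the miR-885-5p range. The difference in log2 ratio of CPM was -0.34 for PSMB9 to PSMB6, -0.30 for PSMB10 to PSMB7 and -0.30 for PSMB8 to PSMB5, miR-885-5p minus control. Two-sided exact permutation tests gave p = 0.1, 0.1 and 0.2 (adjusted over the 3 ratios, 0.15, 0.15 and 0.2), and 0.1 is the smallest p that 3 against 3 libraries can give. In each of the 6 libraries every immunosubunit gene stood below its constitutive partner on the FPKM scale.

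**Figure D4:**
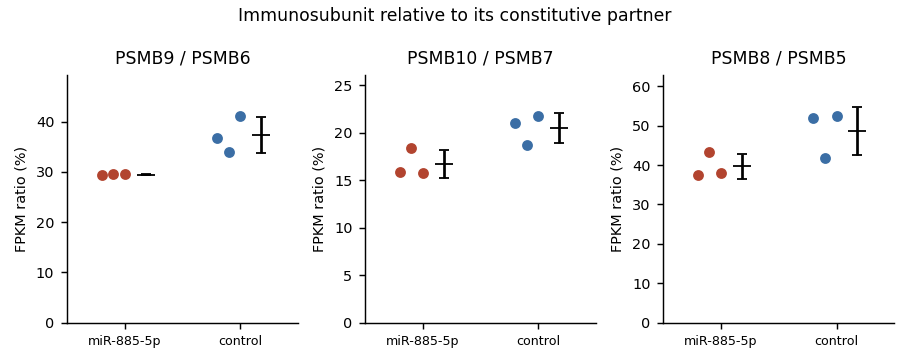
FPKM of each immunosubunit as a percentage of the FPKM of its constitutive partner, 1 point per library in red for miR-885-5p and blue for control, mean with SD beside. The PSMB9 points are at 29.4, 29.5 and 29.5% in miR-885-5p libraries, below all 3 control points; the PSMB8 groups overlap.

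Among the other regulators of the core, PSME3, which encodes the nuclear activator PA28 gamma, had 233, 237 and 242 CPM in miR-885-5p libraries, against 322, 325 and 322 CPM in control libraries (log2 fold change -0.44, SE 0.03, adjusted p = 4.90e-06). The control counts were within a few CPM of each other and far above those of the miR-885-5p libraries. The authors' FPKM did not keep this separation, with 121, 86.0 and 85.2 FPKM in miR-885-5p libraries, against 117, 114 and 119 FPKM in control libraries, where library 1 of the miR-885-5p group was the highest of all. PSME4, which encodes the activator PA200, had a log2 fold change of 0.01 (SE 0.05) and did not pass the test. PSMF1, which encodes the core inhibitor PI31, had -0.14 (adjusted p = 0.0646), and passed the test as lower without control library 3 (-0.20, adjusted p = 0.00164) and with DESeq2 (adjusted p = 0.0350).

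The assembly chaperones of the 20S core went both ways within each of their dimers. PSMG1 (PAC1) had 41.2, 39.9 and 44.1 CPM in miR-885-5p libraries, against 57.9, 56.9 and 54.9 CPM in control libraries (log2 fold change -0.44, SE 0.05, adjusted p = 9.32e-05), whereas its dimer partner PSMG2 (PAC2) had 75.5, 69.6 and 71.2 CPM in miR-885-5p libraries, against 60.4, 59.9 and 65.3 CPM in control libraries (log2 fold change 0.22, SE 0.05, adjusted p = 0.00558). Neither gene's groups overlapped. In the second dimer PSMG4 (PAC4) fell by 0.33 (SE 0.07), and PSMG3 (PAC3) had 42.8, 43.0 and 38.8 CPM in miR-885-5p libraries, against 32.0, 30.2 and 39.6 CPM in control libraries (log2 fold change 0.29, SE 0.10, adjusted p = 0.0273). PSMG3 overlapped through control library 3 and lost its call when library 1 or 2 of either group was left out, with edgeR adjusted p between 0.0763 and 0.0977. Of the base chaperones PSMD5 fell, with 49.2, 53.2 and 53.3 CPM in miR-885-5p libraries, against 56.8, 61.0 and 56.2 CPM in control libraries (log2 fold change -0.16, SE 0.05, adjusted p = 0.0306). That call ended under total-count scaling, with the replicate block and when library 1 or 2 of either group was left out. PSMD9 and PSMD10 (gankyrin) had values of -0.16 and -0.08, neither past the threshold.

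PSMC3IP (HOP2), which binds PSMC3 but acts in strand exchange during recombination, had 26.3, 25.1 and 28.8 CPM in miR-885-5p libraries, against 61.9, 62.4 and 55.3 CPM in control libraries (log2 fold change -1.16, SE 0.07, adjusted p = 1.08e-06). It fell more than any of the 46 proteasome genes. Without it, 22 of 46 genes fell and 4 rose. Its exons overlap those of MLX in the annotation, so reads in the overlap cannot be assigned without strand.

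Per length the genes differed widely in level, although each constitutive core subunit has the same number of copies in a finished core. By the authors' FPKM, PSMA7 was the highest in control libraries, with 218 ± 10.2 FPKM in miR-885-5p libraries and 221 ± 36.8 FPKM in control libraries (SD, n = 3 each), and PSMB3 and PSMB4 followed. In miR-885-5p libraries PSMB4 was the highest, with 226 ± 8.74 FPKM in miR-885-5p libraries and 192 ± 12.2 FPKM in control libraries (SD, n = 3 each). PSMA5 was the lowest core gene, with 21.1 ± 0.640 FPKM in miR-885-5p libraries and 24.8 ± 4.02 FPKM in control libraries, and PSMC1 the lowest cap gene, with 15.6 ± 0.113 FPKM in miR-885-5p libraries and 16.5 ± 1.63 FPKM in control libraries. The lowest of all was PSME4, with 12.3 ± 0.542 FPKM in miR-885-5p libraries and 11.6 ± 0.398 FPKM in control libraries. Neighbours such as PSMB6 and PSMB7, or PSMB1 and PSMC4, lay within each other's SD in control libraries. For PSME3, PSMD9 and PSMA4 the FPKM did not follow the counts: the ratio of FPKM to CPM varied between libraries by up to 1.47-fold, and by less than 1.2-fold for the other 44 genes. For PSMA4 too, library 1 of the miR-885-5p group had a higher FPKM than every control library.

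Control library 3 was the highest of the control libraries for 30 of the 47 genes (63.8%), and for 36.5% of all rows. This held for 12 of 14 core genes and 5 of 5 immunoproteasome genes, and for 9 of 17 cap genes, among them 2 of 8 lid genes. The summed level of the alpha ring, for example, was 765, 749 and 733 CPM in miR-885-5p libraries, against 781, 734 and 926 CPM in control libraries. Without that library 23 of the 47 genes were lower and 6 higher, against 27.5% and 27.2% of all rows. By class these were 6 lower and 3 higher in the core, 10 lower and 1 higher in the cap and 1 lower in the immunoproteasome. Control library 3 has no label that sets it apart, and its part in these values beyond the fits without it was not tested.

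The promoters were searched because NRF1 and interferon act on many of these genes together. RefSeq promoters (GRCh38.p14, 250 bases before to 50 after the start) were found for 41 of the 47 genes. The core of the interferon-stimulated response element, GAAA, any 2 bases and GAAA again, was present, on either strand, in 7 of the 41 and in 3.99% of promoters of tested genes (3.57% of all promoters). These include 4 of the 5 immunoproteasome genes. Their promoter stretches, read along the gene, carry the match in capitals:
PSMB8 (chr6:32844032-32844061, minus strand): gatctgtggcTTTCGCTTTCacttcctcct
PSMB10 (chr16:67936837-67936896, minus strand): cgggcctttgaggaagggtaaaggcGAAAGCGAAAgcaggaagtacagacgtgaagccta
PSME1 (chr14:24136189-24136218, plus strand): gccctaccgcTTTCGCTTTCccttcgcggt
PSME2 (chr14:24146604-24146663, minus strand): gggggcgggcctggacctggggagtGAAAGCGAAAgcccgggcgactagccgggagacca
All 4 hold the same 10 bases, as the reverse complement in PSMB8 and PSME1, and the match begins at -4, -21, 6 and -28 relative to the annotated start, in the order printed. Of these genes PSME2 and PSMB8 fell, PSMB10 had a log2 fold change of -0.23 and PSME1 of 0.07. The other promoters with a match were those of PSMA4, PSMB4 and PSMG4. That of PSMG4, an assembly factor, holds the same 10 bases, beginning at -33, so they are not particular to immunoproteasome genes. Of all 7 genes 4 fell and 1 rose. Of the 34 genes without a match 19 fell and 1 rose, much the same share.

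The antioxidant response element TGACNNNGC, to which NRF1 binds with a small MAF protein, was present in 15 of the 41 promoters (36.6%) and in 19.4% of promoters of tested genes (13.3% of all). Of the 15 genes 10 fell and 1 rose, and of the 26 without a match 13 fell and 1 rose. The matches of 3 genes that fell, from the alpha ring, the beta ring and the lid, are shown in capitals; of the 2 matches in PSMD3 the one upstream of the start is given:
PSMA4 (chr15:78540635-78540694, plus strand): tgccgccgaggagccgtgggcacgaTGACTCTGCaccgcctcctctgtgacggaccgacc
PSMB3 (chr17:38752612-38752671, plus strand): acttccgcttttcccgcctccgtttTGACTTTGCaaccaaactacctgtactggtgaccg
PSMD3 (chr17:39980745-39980804, plus strand): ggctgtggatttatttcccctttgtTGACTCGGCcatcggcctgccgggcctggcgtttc
In all, 11 motifs were searched on both strands. The other 9 were GAAA, any 3 bases and GAAA (2 of 41 promoters), TTCNNNGAA (7), CCAAT (20), CCGGAAG (15), TTTGGCGC (2), GGCGGGAA (7), the palindrome of nuclear respiratory factor 1, GCGC, AT and GCGC (1), AAGATGGC (5) and TGACGTCA (0), where tested genes had them in 2.87%, 8.64%, 43.9%, 22.7%, 1.35%, 6.33%, 2.67%, 6.65% and 3.75% in that order. A match of letters is not a bound site, and no binding was measured.

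Direct seed sites of the microRNA were few. The mature strand is shown with its seed, bases 2 to 8, in capitals (RefSeq, GRCh38.p14, chr3:10394531-10394552, minus strand):
hsa-miR-885-5p: uCCAUUACacuacccugccucu
The longest annotated 3′ UTR (GENCODE 29) was searched for the 7 bases that pair with the seed (GTAATGG), for the same followed by A (GTAATGGA, an 8mer) and for TAATGGA (7mer-A1). None of the 47 genes had the 8mer, against 2.54% of 12304 genes. A 7mer match to the whole seed was found in 3 of 47 (6.38%), against 5.47%, and is shown in capitals in 30 bases of each UTR:
PSMG4 (chr6:3266338-3266367, plus strand): atcggcctttaGTAATGGtgcaggtggcct
PSMD11 (chr17:32482477-32482506, plus strand): atctcatttgtGTAATGGgagtccttaagg
PSMC1 (chr14:90274986-90275015, plus strand): gcacatcatcaGTAATGGgcactttgaaag
PSMG4 and PSMD11 fell, by 0.33 and 0.27 on the log2 scale, and PSMC1 had a log2 fold change of -0.15 (adjusted p = 0.0613). PSMA1 and PSMD12 had a 7mer-A1 alone (2 of 47, 4.26%, against 9.23% of genes). Of the 5 genes that fell most, PSMD12 is one of these, and PSMC3IP, PSMB2, PSMD3 and PSME3 had none of the 3 kinds of site in the UTR searched.

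The 47 genes lie on 17 chromosomes. Genes with a position were ordered along each chromosome, and each proteasome gene was set beside its 50 nearest tested neighbours. PSMB2 (chromosome 1, 35599544 to 35641844, GRCh38) lay among neighbours of which 29 fell and 7 rose, with a median log2 fold change of -0.24, against -0.75 for PSMB2 itself. PSMB4 (chromosome 1, 151399534 to 151401944) and PSMD4 (151254703 to 151267479), both of which rose, lie close to each other, and 22 and 24 of their 50 neighbours rose. PSMG3 and PSMA2 on chromosome 7 had neighbours with medians of 0.15 and 0.15, of which 23 and 25 rose. For PSMD12 and PSME3 on chromosome 17 the neighbours' medians were -0.03 and -0.06, against -0.48 and -0.44 for the genes. Of the 23 genes that fell, 15 had a neighbour median below 0. So did PSMA1, PSMA7, PSMB6, PSMC4, PSMC6, PSMD9, PSMD10, PSMD13, PSMD14, PSME4 and PSMG2, which did not fall. The share of all rows with such a median was not computed. The part of position in these values was not tested. In the annotation 16 of the 47 genes share exon bases with another tested gene, among them PSMB8 with PSMB9, PSME1 with EMC9, PSME2 with RNF31, PSME3 with BECN1, PSMC5 with FTSJ3, PSMA2 with MRPL32, PSMG2 with CEP76 and SPIRE1, and PSMG4 with TUBB2B. Named pseudogenes exist for 12 genes, 13 of them for PSMC1 and 4 for PSMA6. How reads in such places were counted is not stated, and these values are uncertain to that extent.

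NRF1 raises many of the constitutive proteasome genes when proteasome activity is short. It is made as a membrane protein, retrotranslocated, deglycosylated and cut before it enters the nucleus. Of 9 genes for NRF1, its relative NRF2, their partners and this processing, 4 rose and 2 fell, with a median log2 fold change of 0.18. Among all rows 26.3% rose and 26.5% fell, with a median of 0.00, so the share of this list that fell was near that of all rows. NFE2L1 itself had 373, 372 and 384 CPM in miR-885-5p libraries, against 478, 497 and 452 CPM in control libraries (log2 fold change -0.34, SE 0.04, adjusted p = 1.07e-04). DDI2, the protease that cuts NRF1, had 36.2, 31.6 and 34.9 CPM in miR-885-5p libraries, against 50.2, 53.6 and 51.3 CPM in control libraries (log2 fold change -0.59, SE 0.06, adjusted p = 3.43e-05). Both lay below control in every miR-885-5p library. The small MAF partner gene MAFK had 112, 106 and 114 CPM in miR-885-5p libraries, against 60.8, 57.7 and 66.2 CPM in control libraries (log2 fold change 0.85, SE 0.06, adjusted p = 1.88e-06). MAFG rose by 0.35, SEL1L, a part of the ER retrotranslocation machinery, by 0.32 and NGLY1, the deglycosylating enzyme, by 0.23. NFE2L2 had a log2 fold change of -0.08 and did not pass the test. The part of NRF1 in the values of the proteasome genes was not tested.

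Of 13 tested proteasome parts and partners with other names, 5 fell and 2 rose (median -0.0041), where 26.5% of all rows fell and 26.3% rose. PITHD1 fell by 0.54 (35.7 ± 1.90 CPM in miR-885-5p libraries and 51.8 ± 0.630 CPM in control libraries, SD, n = 3 each, edgeR adjusted p = 2.73e-05). ADRM1 (RPN13), a ubiquitin receptor of the cap, fell by 0.30, the cap's deubiquitinase genes UCHL5 and USP14 by 0.30 and 0.26, and ZFAND5, a proteasome activator, rose by 0.24. The cap subunit gene SEM1 and the core maturation factor gene POMP had values of 0.07 and 0.02, neither past the threshold. Of 16 genes for ubiquitin and its activation 8 fell and 3 rose (median -0.13), beside the same 26.5% and 26.3% of all rows. The conjugating enzyme genes UBE2D2, UBE2S and UBE2N fell by 0.49, 0.42 and 0.36, while RPS27A, which encodes ubiquitin fused to a ribosomal protein, rose by 0.51 and the polyubiquitin gene UBB fell by 0.19.

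Of 13 tested genes for the segregase p97 and for shuttling factors 7 fell and 2 rose (median -0.20), where 26.5% of all rows fell and 26.3% rose. VCP, which encodes p97, fell by 0.21. Its cofactor genes NPLOC4 and UFD1 fell by 0.38 and 0.36 and FAF2 by 0.32, and the shuttle gene UBQLN4 and the chaperone gene BAG6 rose by 0.22 and 0.20.

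Of 16 genes of antigen processing and interferon signalling 7 fell and 1, STAT2, rose (median -0.21), where 26.5% of all rows fell and 26.3% rose. IRF1, a transcription factor that induces immunosubunits, had 29.9, 32.0 and 32.3 CPM in miR-885-5p libraries, against 62.1, 66.0 and 63.4 CPM in control libraries (log2 fold change -1.02, SE 0.05, adjusted p = 4.18e-07). TAP2, a chain of the peptide transporter that receives proteasome products, had 61.6, 60.4 and 55.9 CPM in miR-885-5p libraries, against 91.3, 87.0 and 93.2 CPM in control libraries (log2 fold change -0.61, SE 0.05, adjusted p = 7.94e-06). Both were lower in every miR-885-5p library. The peptide-trimming enzyme genes ERAP1 and ERAP2 fell by 0.43 and 0.37, and B2M by 0.28. TAP1, which lies beside PSMB9, had a log2 fold change of 0.09 (adjusted p = 0.313), and NLRC5, the activator of MHC class I genes, of -0.21 (adjusted p = 0.0506).

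**Figure D5:**
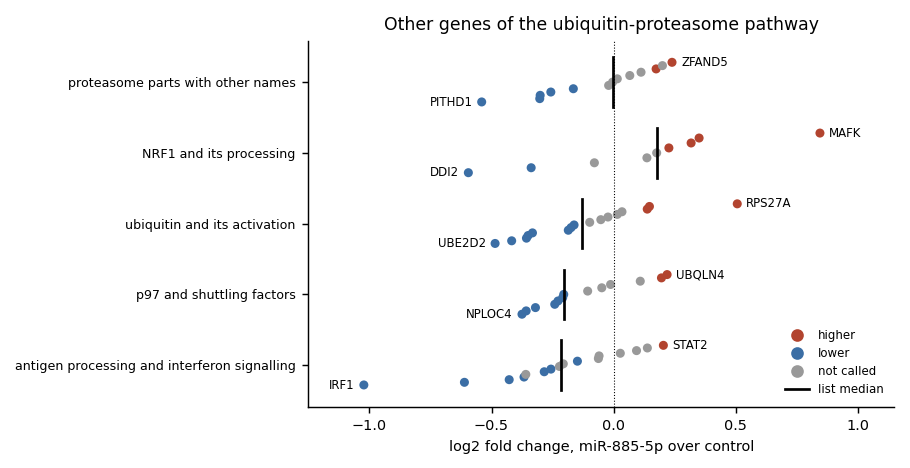
Log2 fold change, miR-885-5p over control, of the other pathway genes in 5 lists, 1 point per gene, with the list's median as a bar. Red points rose and blue points fell at an adjusted p under 0.05; IRF1 (-1.02) and MAFK (0.85) are the outermost points.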

How the data were processed

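The deposited file gives, per the file headers, a count and an FPKM for every gene in every library, plus the p-value and the log2 fold change of the authors' own comparison, whose test is not named. The genome build GRCh38 and the tools DESeq2 1.38.3, StringTie 2.2.1 and HISAT2 2.0.4 are listed, per the submitters' processing notes, without a role; counter, annotation and strand setting are not stated. Counts are whole numbers and were used as deposited by the authors. All 14034 rows reach 1 CPM in 3 libraries, so weak genes had been dropped before deposit; 1614 are gene models with no name. PSMA8 and PSMB11 were not analysed here.

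The main test was edgeR 4.0.16 (R 4.3.3) with TMM factors and quasi-likelihood F tests; filterByExpr removed 0 rows, and p-values were adjusted by Benjamini-Hochberg over all rows, with a threshold of 0.05. Levels are TMM-scaled CPM. FPKM served to compare levels between genes and to print ratios, while the permutation tests of the ratios used CPM. Alternatives were DESeq2 1.42.0, 3 scalings, other filters, the replicate number as a block, a 1.2-fold minimum and each library left out; unscaled CPM and left-out libraries for the summed levels were chosen after seeing the data. The main edgeR model was run on counts simulated with its own fitted dispersions and few changed rows, and the alternatives were not. Such counts cannot check the assumptions of the model, or its scaling where many rows change. Replicates differed by more than sampling noise (chi-square per degree of freedom 7.95 to 40.5 within groups), so none was merged. Groups and columns follow the sample titles.

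Members, classes, lists, motifs and tests were chosen with earlier results of these data known. Every gene of the name rule is accounted for. Values by library are given for the catalytic subunits, PSME1, PSME2 and the largest rise and fall of each other class; from the pathway lists the 3 genes with the smallest adjusted p and the regulators NFE2L1, NFE2L2, IRF1 and NLRC5 are named; some listed genes are not reported here. Genes given beyond that rule, such as PSMA2, PSMD14, PSMD3 and MAFG, were chosen after their values were seen.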

Additional observations from a re-analysis of the deposited data

How the results depend on the processing

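Of the 27 genes past the threshold, 22 stayed past it in the same direction in every alternative fit, and PSMA3, PSMB8, PSMB9, PSMD5 and PSMG3 lost the call under at least 1. None of the 27 changed sign, and 10 other genes passed the threshold under at least 1 alternative. DESeq2 and other filters or RLE scaling ended 0 calls among the 47, and DESeq2 added 4 (PSMB10, PSMC1, PSMD9 and PSMF1, all lower). Leaving out each library gave 20 to 27 lower and 3 to 6 higher genes in all, 5 to 6 lower and 1 to 3 higher in the 20S core, 9 to 12 lower and 1 higher in the 19S cap, and 1 to 4 lower immunoproteasome genes; the core had 3 higher without control library 3. Immunoproteasome genes that fell numbered 1 under total-count scaling, 1 with the replicate block and 1 when control library 3 or either library 1 or 3 of the miR-885-5p group was left out. Total-count scaling gave 2 higher core genes. At 1.2-fold or more, 1 gene was higher in all, 0 in the core and 0 in the cap. Under total-count scaling the summed level differed by -11.9% for the cap, -4.85% for the core and -7.32% for the immunoproteasome; leaving out a library gave -10.9 to -3.73% for the core, -15.5 to -13.8% for the cap and -15.5 to -4.51% for the immunoproteasome.

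Genes near 0 that did not pass the test changed sign. Under total-count scaling the log2 fold changes were 0.026 for PSMC4, 0.032 for PSMD14, 0.035 for PSMA1, 0.012 for PSMB1 and 0.015 for PSMB6, and under upper-quartile scaling 0.00091 for PSMA1. With each library left out in turn they ranged from -0.091 to 0.063 for PSMD14, -0.16 to 0.054 for PSMA7, -0.10 to 0.11 for PSMA1, -0.092 to 0.075 for PSMB6, -0.0061 to 0.14 for PSME1 and -0.018 to 0.058 for PSME4. The cause was not tested. Deviations of same-numbered libraries correlated at -0.18, -0.06 and -0.15, which gave no sign of a pairing. With 3 libraries per group these values cannot exclude one. The replicate block ended the calls of PSMB8, PSMB9 and PSMD5.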
